A study of Homo sapiens with 8 samples.

Results

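The insulin-like growth factor binding proteins (IGFBPs) were followed in PC3 and LNCaP, prostate cancer lines, with and without activated Notch1. Members were the 7 genes IGFBP1 to IGFBP7, and a probe set was taken where the platform annotation gave it exactly 1 gene symbol equal to a member. By this rule 15 probe sets were found among the 10943 of the array that carry 1 symbol, and the 7 genes stood among 8226. IGFBP5 had 6 probe sets, IGFBP2, IGFBP3 and IGFBP4 had 2 each, and IGFBP1, IGFBP6 and IGFBP7 had 1 each. Symbols alone decided which probe sets entered, but the family was picked from earlier results of these same arrays, and any level or Notch1 change below may have entered that choice. Its counts and values are therefore a description, and each adjusted p belongs to the fit of the whole array and is no independent evidence for the choice.

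Expression was measured on Affymetrix U95Av2 oligonucleotide arrays hybridised with labelled RNA from cultured cells. The 8 arrays formed 4 groups of 2: PC3 with green fluorescent protein (GFP) as control, PC3 with activated Notch1, LNCaP with GFP, and LNCaP with activated Notch1. PC3 is an androgen-independent line from a bone metastasis, and LNCaP is an androgen-responsive line from a lymph node metastasis. The series asks how each line answers acute Notch activation. The construct used for these arrays and the time after its delivery are not stated in the labels or methods read here. The replicates were 2 arrays of each sample, so p-values measured the spread between arrays, which may be technical. Each established line stands for 1 tumour only.

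IGFBPs are secreted proteins that bind the growth factors IGF1 and IGF2 with high affinity, carry them in blood and tissue fluid, and set how much ligand reaches the receptor IGF1R. Proteases release the ligand by cutting the binding protein, and some IGFBPs also act at the cell surface or in the matrix without IGF. In the prostate, stroma and epithelium both secrete IGFBPs, and IGFBP3 is a known substrate of prostate-specific antigen. Activated Notch enters the nucleus, joins the DNA-binding protein CSL (RBPJ) and switches on genes such as HES1, a transcriptional repressor.

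Values are log2 expression, and every change or difference is on that log2 scale. A probe set was called higher or lower where limma gave an adjusted p under 0.05 over all 12558 probe sets tested. HES1, the check of Notch activity, rose by 2.56 in PC3 (limma, adjusted p = 4.22e-07) and by 2.78 in LNCaP (adjusted p = 3.12e-07). All 4 measured LNCaP markers were higher in LNCaP GFP, and 7 of 8 PC3 markers were lower there. With Notch1, 3 of the 4 LNCaP markers fell in LNCaP (KLK2 by 1.51, TMPRSS2 by 0.82 and KLK3 by 0.75). Of the PC3 markers, 4 of 8 rose in PC3 (S100A2 by 1.18, CD44 and PLAU by 0.91 each, CAV1 by 0.68), and ANXA1 rose by 3.24 in LNCaP. Each marker was read at its probe set of highest mean level. That is 1 of 6 for KLK3 and 1 of 7 for CD44, whose other probe sets are not given here. The median level of an array was 5.95 to 6.01 in PC3 and 6.28 to 6.36 in LNCaP, and centring the arrays lowered every LNCaP-minus-PC3 difference between GFP groups by 0.28. The 3′ minus 5′ signal of the GAPDH control was 0.02 ± 0.07 (SD, n = 2) in PC3 GFP, -0.06 ± 0.03 in PC3 Notch1, 0.56 ± 0.01 in LNCaP GFP and 0.38 ± 0.03 in LNCaP Notch1. The ACTB control gave 0.38 ± 0.07 (SD, n = 2), 0.33 ± 0.08, 0.62 ± 0.06 and 0.45 ± 0.10 in the same order of groups. This measure of RNA quality moved with the line, less so for ACTB, and, within LNCaP, with Notch1. Its part in the results below was not tested.

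With activated Notch1, IGFBP3 rose in both lines, IGFBP4 fell in PC3, IGFBP2 fell in LNCaP, and IGFBP5 rose in LNCaP at part of its probe sets. IGFBP1, IGFBP6 and IGFBP7 had no probe set called for Notch1 in either line. In PC3, 2 of 15 probe sets were called higher and 2 lower (26.7%), beside 6.20% of all probe sets tested (4.19% higher and 2.01% lower). In LNCaP, 4 were called higher and 2 lower (40.0%), beside 17.3% of all (8.01% higher and 9.32% lower). These calls came from 2 genes in PC3 and 3 in LNCaP, each called at 2 probe sets that are not independent. The difference between the lines in the Notch1 change was called for 8 probe sets of 4 genes (53.3%), beside 14.2% of all. The median change of the 15 probe sets was -0.21 in PC3 and 0.03 in LNCaP, against -0.08 and 0.04 over all probe sets. GFP and Notch1 arrays did not overlap for 10 of the 15 in PC3, where 56.0% of all probe sets did not overlap, and for 8 in LNCaP, where 57.0% did not. RNA from a culture is a mixture over its cells, so fewer expressing cells and less RNA per cell cannot be told apart.

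**Figure D1:**
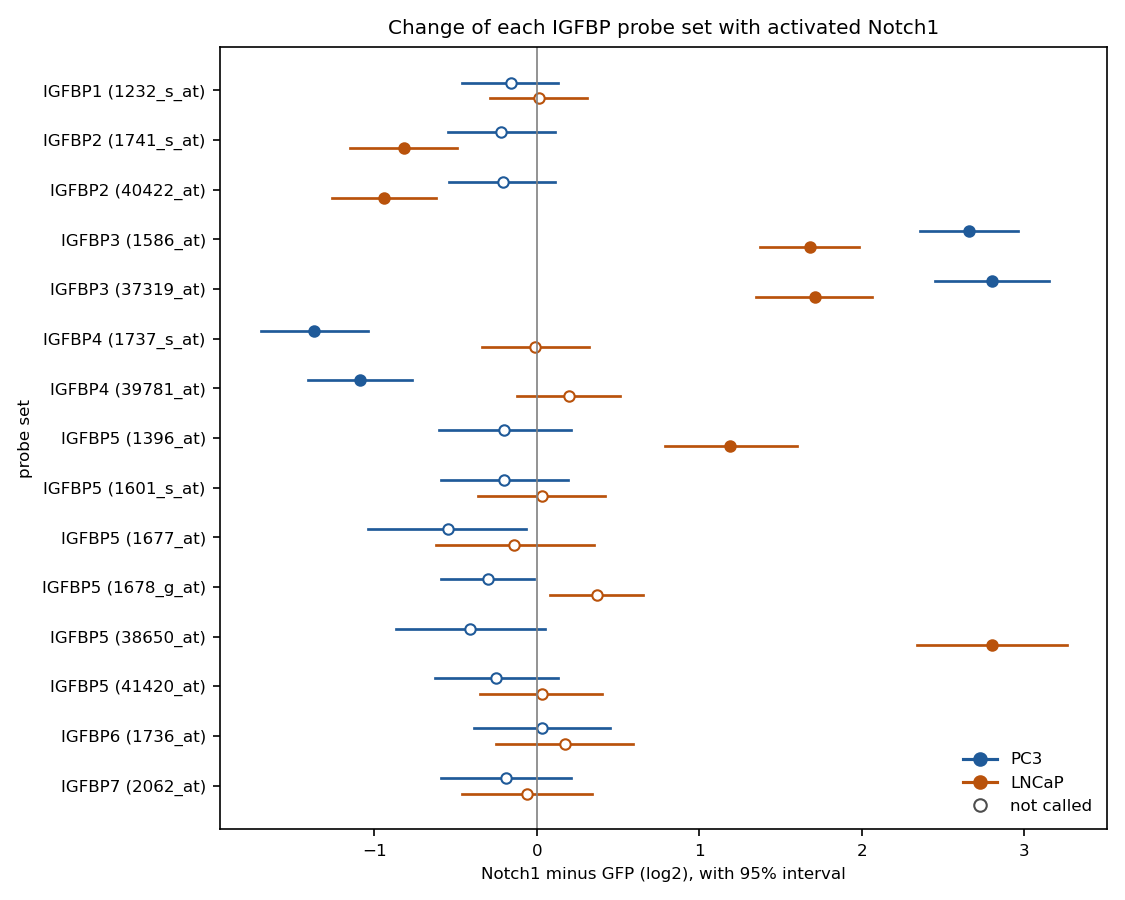
Change with activated Notch1 of each IGFBP probe set in PC3 and in LNCaP, as Notch1 minus GFP on the log2 scale. Points are limma estimates, bars their 95% intervals, and filled points were called at an adjusted p under 0.05: both IGFBP3 probe sets lie right of 0 in both lines, both IGFBP4 probe sets left of 0 in PC3 and both IGFBP2 probe sets left of 0 in LNCaP.

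To show the DNA next to genes that moved and have a single start in the table, the 250 bases before the transcription start were read for IGFBP3, IGFBP4 and IGFBP5, with capitals at TGGGAA, the core letters that CSL binds. IGFBP2, which also moved, has 3 starts there, and its windows were searched but are not printed. Sequences are from RefSeq on GRCh38.p14, written 5′ to 3′ on the gene's strand. IGFBP3 lies at chr7:45921273-45921522 (minus strand), IGFBP4 at chr17:40443200-40443449 (plus strand) and IGFBP5 at chr2:216695550-216695799 (minus strand).
IGFBP3: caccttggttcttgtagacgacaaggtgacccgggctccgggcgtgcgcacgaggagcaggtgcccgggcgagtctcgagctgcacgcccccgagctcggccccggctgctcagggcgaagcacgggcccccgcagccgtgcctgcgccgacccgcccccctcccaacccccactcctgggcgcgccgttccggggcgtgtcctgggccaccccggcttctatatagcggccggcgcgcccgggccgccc
IGFBP4: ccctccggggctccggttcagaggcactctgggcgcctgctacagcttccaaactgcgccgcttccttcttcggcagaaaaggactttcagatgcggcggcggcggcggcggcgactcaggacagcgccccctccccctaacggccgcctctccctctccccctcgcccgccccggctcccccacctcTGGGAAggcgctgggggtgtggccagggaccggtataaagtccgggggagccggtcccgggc
IGFBP5: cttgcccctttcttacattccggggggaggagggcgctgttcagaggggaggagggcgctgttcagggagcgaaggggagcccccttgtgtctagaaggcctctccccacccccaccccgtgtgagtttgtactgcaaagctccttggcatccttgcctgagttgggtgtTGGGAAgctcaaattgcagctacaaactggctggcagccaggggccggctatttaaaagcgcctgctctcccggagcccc
The run for IGFBP6, which was not called for Notch1, is 30 bases around its own match at chr12:53097463-53097492 (plus strand).
IGFBP6: atcagagcaattTGGGAAgtaaacagaaac
Windows of 300 bases (250 before and 50 after the start) were searched on both strands for the CSL core TGGGAA. They were also searched for CACNAG, the N box bound by HES repressors. The last search was for CACGCG, another site of these repressors. The search letters were chosen with the expression results known. TGGGAA was found 62 bases before the start of IGFBP4, 80 before that of IGFBP5 and 192 before that of IGFBP6, and 24.0% of 35116 RefSeq windows held it. The window of IGFBP3 and the 3 windows of IGFBP2 held no TGGGAA. The N box CACNAG, present in 38.0% of windows, was found 202 bases before the start of IGFBP3, 166 before that of IGFBP5 (minus strand) and 10 before that of 1 IGFBP2 transcript. CACGCG, present in 11.4% of windows, was in none of the family's 7 windows, and no match overlapped one of another kind. IGFBP1 and IGFBP7 had no entry. A match of letters shows neither binding nor a cause, and a window without one says nothing of the factor.

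IGFBP3, the main carrier of IGFs in blood and a growth inhibitor in many epithelial cells, was the member that rose in both lines. At 37319_at the PC3 GFP arrays read 8.48 and 8.21 and the PC3 Notch1 arrays 11.25 and 11.04. In LNCaP the GFP arrays read 9.62 and 9.34 and the Notch1 arrays 11.33 and 11.03. All 4 Notch1 arrays lay above all 4 GFP arrays. The change was 2.80 ± 0.16 (SE, n = 2 per group) in PC3, a 6.97-fold rise (limma, adjusted p = 2.26e-06), and 1.71 ± 0.16 in LNCaP, a 3.26-fold rise (limma, adjusted p = 3.89e-05).

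The other IGFBP3 probe set, 1586_at, gave the same order of groups. It read 8.12 and 7.83 in PC3 GFP, 10.63 and 10.64 in PC3 Notch1, 9.14 and 8.95 in LNCaP GFP and 10.81 and 10.63 in LNCaP Notch1. The rise was 2.66 ± 0.14 (SE), or 6.32-fold, in PC3 (limma, adjusted p = 1.02e-06) and 1.68 ± 0.14, or 3.20-fold, in LNCaP (adjusted p = 1.61e-05). Both probe sets were designed from the same sequence record. Without activated Notch1 the lines were apart: LNCaP GFP exceeded PC3 GFP by 1.13 at 37319_at (limma, adjusted p = 1.01e-04) and by 1.07 at 1586_at (adjusted p = 5.32e-05). With it they overlapped, the LNCaP mean exceeding the PC3 mean by 0.04 and 0.08. The smaller rise in LNCaP was called as a difference between lines, -1.10 ± 0.22 (SE) at 37319_at (limma, adjusted p = 0.00928) and -0.98 ± 0.19 at 1586_at (adjusted p = 0.00770). When values under log2 5 were raised to 5, both differences kept their size (-1.10 and -0.98), since no IGFBP3 value is that low, but were no longer called (limma, adjusted p = 0.0819 and 0.0530). Nor was 37319_at called after quantile normalization (-0.73, adjusted p = 0.0512). Raising low values refits the variances moderated over all probe sets, so the loss at unchanged IGFBP3 values is no sign of low signal.

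**Figure D2:**
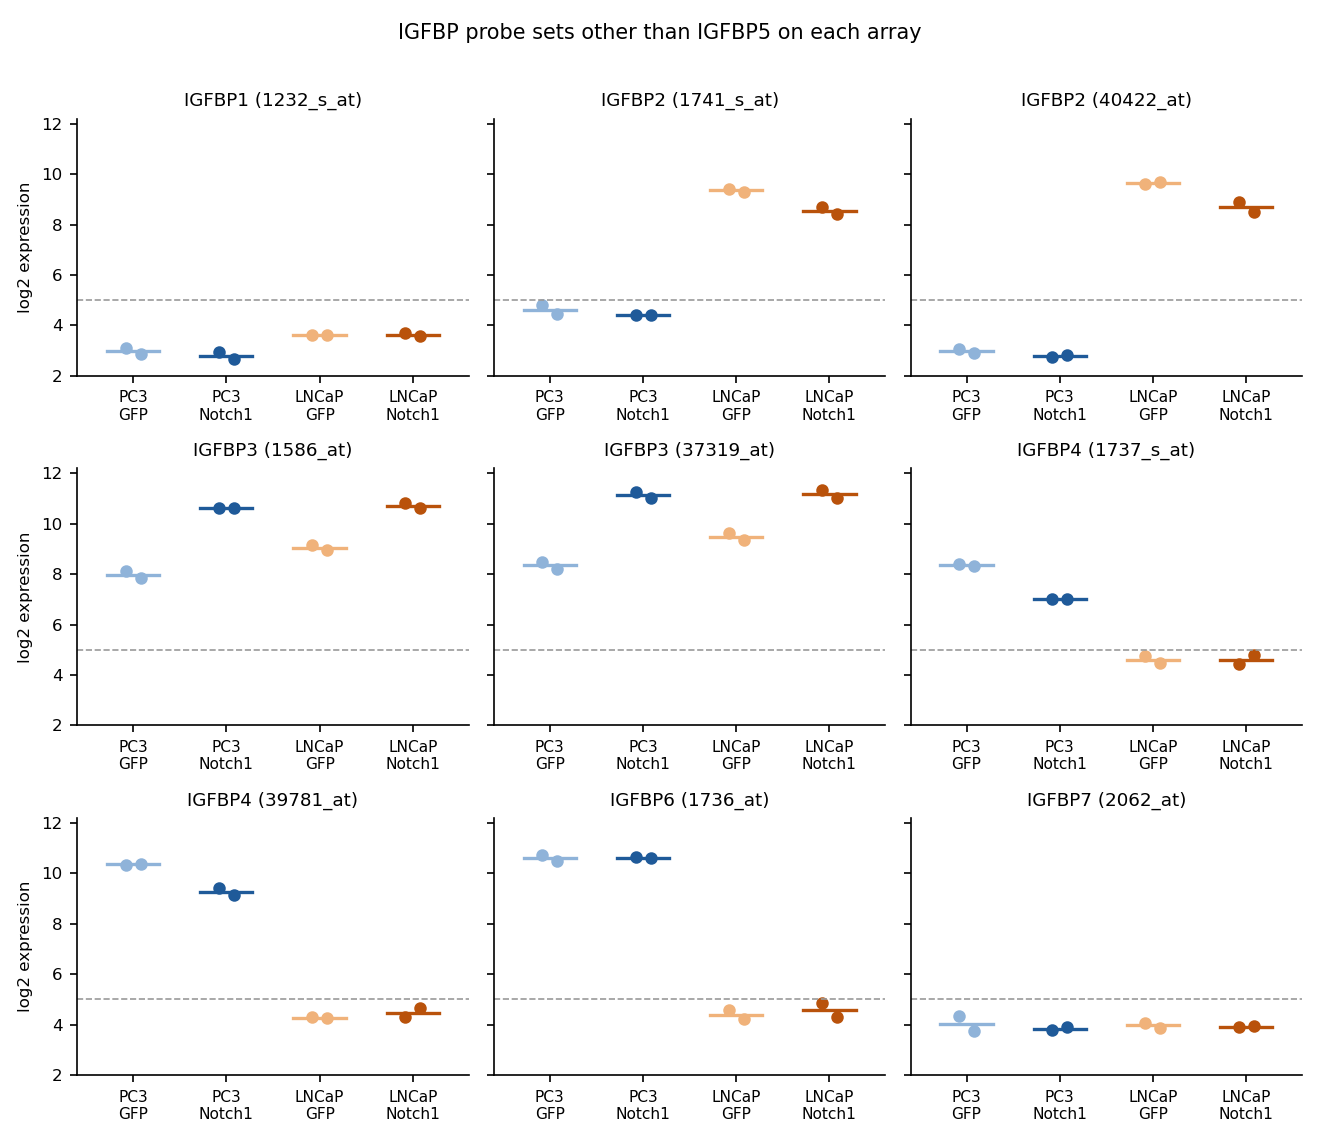
Log2 expression on each of the 8 arrays for the 9 probe sets of IGFBP1, IGFBP2, IGFBP3, IGFBP4, IGFBP6 and IGFBP7, by cell line and GFP or activated Notch1. Points are arrays, horizontal bars are means of 2, and the dashed line is log2 5: the IGFBP3 panels show all Notch1 arrays above all GFP arrays, while IGFBP1 and IGFBP7 stay under the dashed line on all 8 arrays.

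IGFBP4, which in most systems inhibits IGF action and is cut by the protease PAPPA, was a PC3 gene here and fell with activated Notch1. At 39781_at the PC3 GFP arrays read 10.32 and 10.39, and the PC3 Notch1 arrays 9.40 and 9.13. In LNCaP the same probe set read 4.29 and 4.27 with GFP and 4.31 and 4.64 with Notch1. The PC3 groups did not overlap, and all LNCaP arrays lay under log2 5. The change in PC3 was -1.09 ± 0.14 (SE, n = 2 per group), a level 2.13-fold lower (limma, adjusted p = 0.00126). At 1737_s_at, designed from another sequence record, PC3 GFP read 8.42 and 8.34 and PC3 Notch1 7.00 and 7.01, a change of -1.37 ± 0.15 or 2.59-fold lower (limma, adjusted p = 3.17e-04).

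IGFBP4 in LNCaP gave no called change. LNCaP at 1737_s_at read 4.76 and 4.46 with GFP and 4.43 and 4.78 with Notch1. The change there was -0.01 (95% interval -0.34 to 0.32), and at 39781_at it was 0.20 (-0.12 to 0.51). A fall from such low levels may not be detectable. The difference between the lines was called at both, 1.37 at 1737_s_at (limma, adjusted p = 0.00209) and 1.29 at 39781_at (adjusted p = 0.00239). PC3 GFP exceeded LNCaP GFP 67.4-fold at 39781_at (limma, adjusted p = 1.12e-10) and 13.6-fold at 1737_s_at (adjusted p = 4.93e-09). With LNCaP values raised to log2 5 these differences went from -6.08 to -5.36 and from -3.77 to -3.38.

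IGFBP2, found at high levels in many tumours and known as a marker of PI3K pathway activity, showed the opposite pattern of lines. At 40422_at the LNCaP GFP arrays read 9.61 and 9.67 and the LNCaP Notch1 arrays 8.90 and 8.50. In PC3 it read 3.07 and 2.92 with GFP and 2.73 and 2.83 with Notch1. The Notch1 arrays were below the GFP arrays in both lines, but PC3 was under log2 5 throughout. The change in LNCaP was -0.94 ± 0.14 (SE, n = 2 per group), a level 1.92-fold lower (limma, adjusted p = 0.00120). In PC3 it was -0.21 (95% interval -0.54 to 0.11) and was not called. The LNCaP markers KLK2, TMPRSS2 and KLK3 fell beside IGFBP2 in LNCaP, and the part of that shift in its fall was not tested.

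The other IGFBP2 probe set, 1741_s_at, read 9.43 and 9.30 in LNCaP GFP, 8.68 and 8.41 in LNCaP Notch1, 4.81 and 4.45 in PC3 GFP and 4.41 and 4.41 in PC3 Notch1. It fell by 0.82 in LNCaP (SE 0.15), or 1.77-fold (limma, adjusted p = 0.00338), and the PC3 change was -0.22 (95% interval -0.55 to 0.11). LNCaP GFP exceeded PC3 GFP 100-fold at 40422_at (limma, adjusted p = 7.67e-11) and 26.6-fold at 1741_s_at (adjusted p = 8.03e-10). With low values raised to log2 5 these log2 differences of 6.64 and 4.74 became 4.64 and 4.37. Whether the fall in LNCaP differs from the PC3 change was close to the threshold: the difference was -0.73 at 40422_at (limma, adjusted p = 0.0404) and -0.60 at 1741_s_at (adjusted p = 0.0839). The call at 40422_at was lost with values raised to log2 5 (-0.94, adjusted p = 0.0643) and without any 1 of 6 arrays, namely PC3 GFP replicate 2 (-0.65), PC3 Notch1 replicate 1 (-0.78) or 2 (-0.68), LNCaP GFP replicate 1 (-0.76) or 2 (-0.70), or LNCaP Notch1 replicate 2 (-0.53). At 1741_s_at it was gained without PC3 GFP replicate 1 (-0.78, limma, adjusted p = 0.0330), after median centring (-0.70, 0.0455), after quantile normalization (-0.66, 0.0496), with values raised to log2 5 (-0.82, 0.0467) and with the replicate number as a block (-0.60, 0.0300).

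IGFBP5, a matrix-binding member conserved across vertebrates, did not give 1 answer over its 6 probe sets. At 38650_at the LNCaP GFP arrays read 3.19 and 3.68 and the LNCaP Notch1 arrays 6.43 and 6.03. In PC3 this probe set read 3.81 and 3.31 with GFP and 3.12 and 3.18 with Notch1. Only the LNCaP Notch1 arrays stood above log2 5. The rise in LNCaP was 2.80 ± 0.21 (SE, n = 2 per group), or 6.95-fold (limma, adjusted p = 9.38e-06), and the change in PC3 was -0.41 (95% interval -0.87 to 0.05). With values under log2 5 raised to 5 the rise was 1.23.

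A rise in LNCaP was also called at 1396_at, which was designed from the same record as 38650_at. It read 4.20 and 4.30 in LNCaP GFP, 5.34 and 5.54 in LNCaP Notch1, 2.76 and 2.13 in PC3 GFP and 2.30 and 2.20 in PC3 Notch1. The rise was 1.19 ± 0.18 (SE), or 2.29-fold (limma, adjusted p = 0.00121), and 0.44 with values raised to log2 5. The PC3 change at 1396_at was -0.20 (95% interval -0.60 to 0.21), and it was called lower without PC3 GFP replicate 2 (-0.52, limma, adjusted p = 0.0443). The difference between lines was 3.21 at 38650_at (limma, adjusted p = 9.78e-05) and 1.39 at 1396_at (adjusted p = 0.00600), and the latter was not called with values raised to log2 5 (0.44, adjusted p = 0.0698).

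The other 4 IGFBP5 probe sets showed no called change with Notch1 in the model without a replicate block. At 1677_at PC3 read 5.72 and 5.07 with GFP and 4.91 and 4.77 with Notch1, and LNCaP read 6.09 and 5.64 with GFP and 5.89 and 5.57 with Notch1. Its change was -0.55 (95% interval -1.04 to -0.07; limma, adjusted p = 0.155) in PC3 and -0.14 in LNCaP, and the PC3 fall was called without PC3 GFP replicate 2 (-0.88, adjusted p = 0.0189). A block for the replicate number also gave that call (-0.55, limma, adjusted p = 0.0271). At 1601_s_at PC3 read 5.54 and 5.11 with GFP and 5.00 and 5.25 with Notch1, and LNCaP read 5.66 and 5.44 with GFP and 5.75 and 5.42 with Notch1. The groups overlapped in both lines, with changes of -0.20 in PC3 and 0.03 in LNCaP.

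The last pair of IGFBP5 probe sets stayed under log2 5 on all 8 arrays. At 1678_g_at the arrays read 2.39 and 2.13 in PC3 GFP, 1.90 and 2.01 in PC3 Notch1, 2.81 and 2.81 in LNCaP GFP and 3.10 and 3.25 in LNCaP Notch1. Its changes were -0.30 in PC3 and 0.37 in LNCaP (limma, adjusted p = 0.177 and 0.0773), the latter called without either PC3 GFP array (adjusted p = 0.0478), and their difference of 0.67 was called (adjusted p = 0.0342). This difference was lost without any 1 array except PC3 GFP replicate 2 (0.54 to 0.75), after median centring (0.57), after quantile normalization (0.52) and with values raised to log2 5 (0.00). At 41420_at the arrays read 3.16 and 2.89, 2.79 and 2.76, 3.49 and 3.16, and 3.56 and 3.15 in the same order of groups, with changes of -0.25 and 0.03. Of the 6 probe sets for this gene, 2 rose in LNCaP and 4 were not called, and which transcripts each set detects was not tested.

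**Figure D3:**
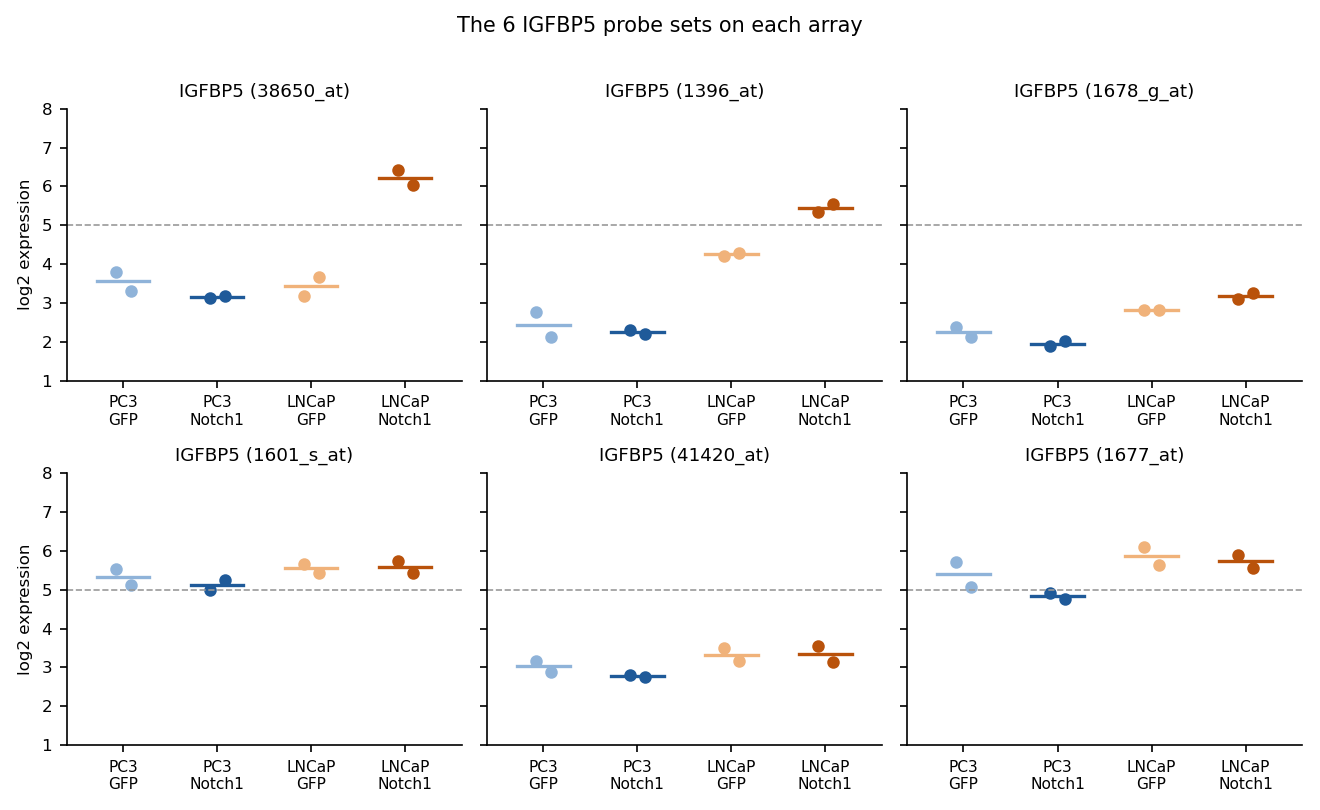
Log2 expression on each of the 8 arrays for the 6 IGFBP5 probe sets, by cell line and GFP or activated Notch1. Points are arrays, horizontal bars are means of 2, and the dashed line is log2 5: 38650_at rises from 3.44 to 6.23 in LNCaP and 1396_at from 4.25 to 5.44, while the LNCaP groups of 1677_at, 1601_s_at and 41420_at overlap.

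IGFBP6, which binds IGF2 in preference to IGF1, was high in PC3 and gave no called change. At 1736_at the PC3 arrays read 10.71 and 10.48 with GFP and 10.63 and 10.62 with Notch1. The LNCaP arrays read 4.58 and 4.21 with GFP and 4.84 and 4.29 with Notch1. The GFP and Notch1 arrays overlapped in both lines. All LNCaP arrays were under log2 5, where a change may not be detectable. The change was 0.03 (95% interval -0.39 to 0.45) in PC3 and 0.17 (-0.25 to 0.59) in LNCaP. PC3 GFP exceeded LNCaP GFP 73.9-fold (limma, adjusted p = 6.53e-10), and the difference of -6.21 became -5.60 with LNCaP raised to log2 5.

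IGFBP1, a liver product that insulin holds down, and IGFBP7, a relative with low affinity for IGFs, stayed under log2 5 on all 8 arrays. IGFBP1 (1232_s_at) read 3.09 and 2.85 in PC3 GFP, 2.93 and 2.68 in PC3 Notch1, 3.62 and 3.63 in LNCaP GFP and 3.70 and 3.57 in LNCaP Notch1. Its change was -0.16 (95% interval -0.46 to 0.13) in PC3 and 0.01 (-0.29 to 0.31) in LNCaP. IGFBP7 (2062_at) read 4.34 and 3.74, 3.77 and 3.92, 4.08 and 3.87, and 3.89 and 3.94 in the same order of groups, with changes of -0.19 (-0.59 to 0.21) and -0.06 (-0.46 to 0.34). At these levels a change in either gene may not be detectable.

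Between the lines without activated Notch1, 10 of the 15 probe sets were called (7 higher and 3 lower in LNCaP, 66.7%), beside 58.8% of all probe sets (40.3% higher and 18.5% lower). The share is near that of the array as a whole. IGFBP4 and IGFBP6 were lower in LNCaP, and IGFBP2 and IGFBP3 were higher. Of the others, IGFBP1 was called higher by 0.65 (limma, adjusted p = 0.00156), IGFBP5 by 1.80 at 1396_at (adjusted p = 8.68e-06) and by 0.55 at 1678_g_at (adjusted p = 0.00354). All 3 became 0.00 when values under log2 5 were raised to 5. The calls of IGFBP1 (0.26) and 1678_g_at (0.15) were also lost after quantile normalization, and that of 1678_g_at after median centring (0.27). IGFBP5 at 38650_at differed by -0.12 and IGFBP7 by -0.06, and neither was called. At 1677_at the difference of 0.48 (limma, adjusted p = 0.0841) was called without PC3 GFP replicate 1 (0.80), without LNCaP GFP replicate 2 (0.70) and with the replicate block (0.48, adjusted p = 0.00969). At 41420_at the difference of 0.30 was called with that block alone (adjusted p = 0.0473), and IGFBP7 was called lower after quantile normalization (-0.44, adjusted p = 0.0457).

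The order of group means differed by gene. IGFBP3 ran from PC3 GFP through LNCaP GFP to the Notch1 groups, which overlapped. IGFBP4 ran from PC3 GFP to PC3 Notch1 and then to the LNCaP groups, which were not called apart. IGFBP2 ran from LNCaP GFP to LNCaP Notch1 and then to the PC3 groups, also not called apart. IGFBP6 ran from the overlapping PC3 groups to the overlapping LNCaP groups.

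Array profiles most like those of the members were sought over the 8 arrays, each profile centred on its mean and compared by root mean square difference. The search took each gene's probe set of highest mean level where it was called in any comparison, which left out IGFBP5 and IGFBP7. Nearest to IGFBP3 (37319_at) were BMP6, a bone morphogenetic protein, and TSPAN8, a tetraspanin, each at 0.33, and HES1 at 0.43, beside a range of 3.12 for IGFBP3 itself. BMP6 rose by 2.09 in PC3 and 2.22 in LNCaP, and TSPAN8 by 2.02 and 2.00. Nearest to IGFBP4 (39781_at) were PLIN2 (0.15), a lipid droplet protein, GPRC5A (0.27) and EMP3 (0.31). Of these, PLIN2 changed by -0.78 in PC3 and -0.03 in LNCaP. Nearest to IGFBP2 (1741_s_at) were PRKD1 (0.16), a protein kinase, TMT1A (0.20) and NDN (0.20). PRKD1 changed by -1.16 in LNCaP and -0.48 in PC3. Nearest to IGFBP6 were UCHL1 (0.29), TMEM158 (0.36) and KRT19 (0.36), and nearest to IGFBP1, over a range of 1.01, were NEDD9 (0.04), NCF4 (0.05) and IP6K1 (0.06). Profiles with a large gap between the lines are alike through that gap, and these likenesses carry no test.

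The other genes of the IGF axis were taken by role, each by its probe set of highest mean level. Over all genes so taken, 6.58% were called with Notch1 in PC3 (4.36% higher and 2.21% lower) and 18.6% in LNCaP (8.47% higher and 10.2% lower), with median changes of -0.07 and 0.04. Of the ligands and receptors, 7 of 8 were measured, with medians of -0.11 in PC3 and 0.02 in LNCaP. None was called in PC3, and 1 was called lower in LNCaP, the insulin receptor INSR (-0.47, limma, adjusted p = 0.0327). That call was lost at the same size (-0.47) with values raised to log2 5 and without PC3 Notch1 replicate 1 or 2, and at -0.36 without LNCaP GFP replicate 2 or LNCaP Notch1 replicate 1. The other INSR probe set, 1572_s_at, was under log2 5 on all 8 arrays. It changed by 0.07 in LNCaP and was not called (limma, adjusted p = 0.828). The ligand IGF1 changed by -0.15 in PC3 and 0.02 in LNCaP, and IGF2 by -0.11 and 0.15. The signalling receptor IGF1R changed by 0.11 and 0.37, and IGF2R, which clears IGF2, by 0.12 and -0.09.

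Of the IRS and PI3K-AKT relay, 21 of 25 genes were measured, with medians of 0.00 in PC3 and -0.09 in LNCaP. In PC3, 1 was called higher and 1 lower. The docking protein IRS1 rose by 0.60 (limma, adjusted p = 0.0456) and by 0.95 at 851_s_at (adjusted p = 0.00716), and was not called at 872_i_at (0.67, adjusted p = 0.286) or 850_r_at (0.09, adjusted p = 0.746). The PI3K regulatory subunit PIK3R3 was -0.48 (limma, adjusted p = 0.0452), and its other probe sets, at -0.23 and -0.25, were not called. Both leading values were close to the threshold, and leaving out PC3 GFP replicate 1 or either PC3 Notch1 array was among the settings that ended both calls. In LNCaP, 3 were called lower and 1 higher. The PI3K regulatory subunit PIK3R1 read 7.35 and 7.61 with GFP and 5.14 and 5.11 with Notch1, a change of -2.35 (limma, adjusted p = 1.60e-05). The receptor adaptor GRB10 changed by -1.48 (adjusted p = 1.45e-05) and PIK3R3 by -0.83 (adjusted p = 8.50e-04). The gene called higher was TSC1, an inhibitor of mTOR signalling (0.48, adjusted p = 0.0135), named after its value was seen. TSC1 read 4.58 and 4.56 with GFP and 5.13 and 4.98 with Notch1 in LNCaP, and 7 of its 8 arrays were under log2 5. IRS1 in LNCaP was -0.29 and IRS2 was -0.23 in PC3 and -0.09 in LNCaP, none called.

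Of the proteases that cut IGFBPs and their inhibitors, 25 of 26 were measured, with medians of -0.14 in PC3 and 0.13 in LNCaP. In PC3, 3 were called higher and 1 lower. The collagenase MMP1 read 5.06 and 5.16 with GFP and 2.43 and 2.06 with Notch1, a change of -2.87 (limma, adjusted p = 1.02e-06) that became -0.11 and was not called with values raised to log2 5. TIMP1, an inhibitor of metalloproteinases, rose by 1.74 (adjusted p = 2.35e-05), and the matrilysin MMP7 by 1.50 (adjusted p = 2.64e-05), which became 0.35 and stayed called with values raised to log2 5. The other was PLAU, the urokinase (0.91, adjusted p = 0.00373), named after its value was seen. In LNCaP, 1 was called higher and 3 lower. KLK2, a prostate kallikrein, read 9.77 and 9.52 with GFP and 8.33 and 7.94 with Notch1, a change of -1.51 (limma, adjusted p = 4.94e-04). The others, named after their values were seen, were STC2, an inhibitor of PAPPA (-0.98), KLK3, prostate-specific antigen (-0.75), and PLAT, the tissue plasminogen activator (1.00).

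Of the IGFBP-related proteins, 9 of 11 were measured, with medians of 0.04 in PC3 and 0.23 in LNCaP. CCN1, a matrix protein with an IGFBP-like domain, read 4.23 and 4.45 in PC3 GFP, 7.75 and 7.71 in PC3 Notch1, 5.20 and 5.60 in LNCaP GFP and 8.30 and 8.33 in LNCaP Notch1. It rose by 3.39 in PC3 (limma, adjusted p = 3.49e-07) and by 2.91 in LNCaP (adjusted p = 1.04e-06). The only other call was its relative CCN2 in PC3 (1.03, adjusted p = 0.00440), lost without PC3 Notch1 replicate 2 (0.93, adjusted p = 0.0627) and with values raised to log2 5. Of the cell surface and matrix partners, 12 of 14 were measured, with medians of -0.04 in PC3 and 0.12 in LNCaP, and in PC3 1 was called higher and 1 lower. CAV1, the coat protein of caveolae (0.68, limma, adjusted p = 0.0290), and LRP1, an endocytic receptor that binds IGFBP3 (-0.56, adjusted p = 0.0365), were lost in 8 and 9 of the alternatives tried, those without PC3 GFP replicate 1 or either PC3 Notch1 array included. In LNCaP the matrix protein fibronectin, FN1, was the only call (1.85, limma, adjusted p = 2.05e-06).

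**Figure D4:**
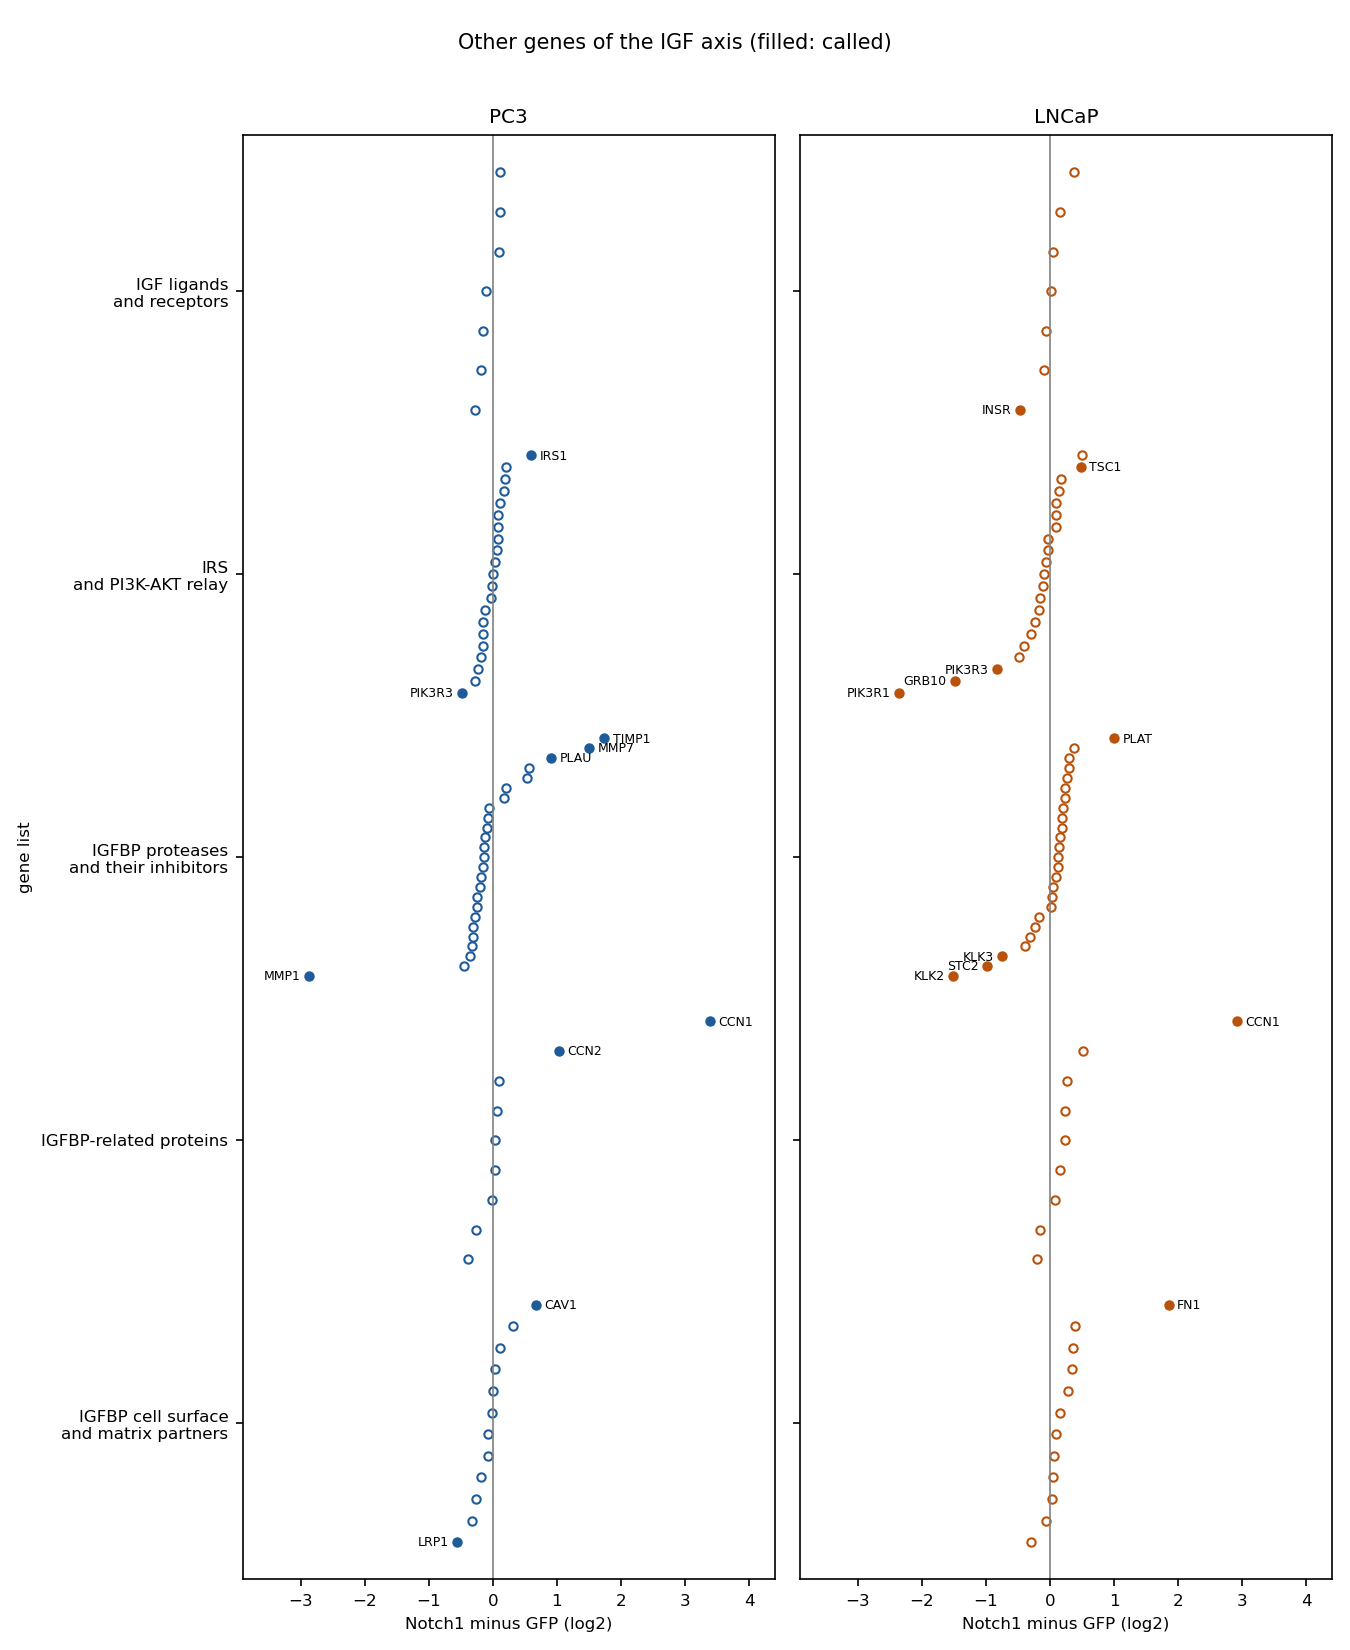
Change with activated Notch1 of the other measured genes of the IGF axis in PC3 and LNCaP, as Notch1 minus GFP on the log2 scale, by gene list and ordered by change within a list. Each point is a gene's probe set of highest mean level, and filled, named points were called: CCN1 lies far right in both lines (3.39 and 2.91), and PIK3R1 far left in LNCaP (-2.35).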

How the data were processed

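Total RNA of PC3 and LNCaP cells, with GFP or activated Notch1, was hybridised to 8 Affymetrix U95Av2 arrays, 2 per group by the labels. The log2 values that the authors deposited, 1 for each probe set on each array, came from RMA (background correction, normalization between arrays and summary of probes) and went into limma. No source read here states versions or whether both lines were normalized together. The expression of NOTCH1 was not analysed here. The deposited log2 values were taken as they stood. Of 12625 probe sets, 67 controls were left out and 12558 tested with limma 3.58.1 in R 4.3.3, using a mean for each of 4 groups over all 8 arrays, moderated variances (prior df 6.37, residual df 4) and Benjamini-Hochberg adjustment over all probe sets. The self-test on simulated data ran first.

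The platform annotation gave 10943 probe sets 1 symbol, 545 several and 1070 none, and 10934 gene identifiers matched RefSeq with 0 symbols differing. Members and lists were chosen with earlier results of these data known. Named were every member probe set, HES1, IGF1, IGF2, IGF1R, IGF2R, INSR, IRS1, IRS2, up to 4 called genes with the largest change per IGF axis list, and the 3 nearest profiles of each member whose leading probe set was called. Alternatives were median centring, quantile normalization, a 25th percentile filter, a floor at log2 5, only the 4 arrays of a comparison, an intensity trend with robust prior, a replicate block, and leaving out each array. Log2 5 was an arbitrary mark for low signal, since no detection calls were used. Raising values to it also changes the moderated variances of probe sets with no value under it. HES1 in PC3 kept its change of 2.56, with a limma adjusted p of 7.96e-04 in place of 4.22e-07. Same-numbered arrays deviated together from their group means (correlations of 0.124 to 0.545 over 6 pairs of groups), though no label says what a number shares, so the value with the block stands beside each IGFBP result whose call it changes. The number of arrays limits precision.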

Additional observations from a re-analysis of the deposited data

Results flagged for a closer look

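The results below stand here because the change with activated Notch1 differed between LNCaP and PC3 by limma's test of the difference itself (LNCaP change minus PC3 change, log2, adjusted p under 0.05). Among the IGFBP probe sets the difference was 3.21 for IGFBP5 at 38650_at, 1.39 at 1396_at and 0.67 at 1678_g_at. For IGFBP4 it was 1.37 at 1737_s_at and 1.29 at 39781_at. For IGFBP3 it was -1.10 at 37319_at and -0.98 at 1586_at, and for IGFBP2 -0.73 at 40422_at. Every PC3 array read under log2 5 for IGFBP2 at 40422_at and for IGFBP5 at 38650_at, 1396_at and 1678_g_at. At 1678_g_at the LNCaP arrays were under it too. For IGFBP4 every LNCaP array was under log2 5 at both probe sets. A change in a line that reads so low may not be detectable. No IGFBP3 value was under log2 5.

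Among the other genes of the IGF axis, the difference was 3.0 for MMP1, 1.81 for FN1 and 0.85 for LRP1. It was -2.20 for PIK3R1, -1.65 for TIMP1, -1.55 for GRB10, -1.46 for MMP7, -1.37 for KLK2, -0.89 for IRS1 and -0.80 for CCN2. For some of these genes the line without a called change read low. Means with GFP and Notch1 were 2.61 and 2.46 for PIK3R1 and 4.45 and 4.30 for KLK2 in PC3. In LNCaP they were 4.86 and 4.96 for TIMP1, 2.86 and 2.90 for MMP7, 1.45 and 1.67 for CCN2 and 1.52 and 1.66 for MMP1. At such levels a change may not be detectable. The difference for MMP1 became 0.11 (limma, adjusted p = 0.236) with values under log2 5 raised to 5, and that for MMP7 became -0.35. That for KLK2 was lost without LNCaP Notch1 replicate 2 (-1.17). The CCN2 difference was lost without 7 of the 8 arrays (all but PC3 GFP replicate 2, with values of -0.56 to -0.90), after quantile normalization (-0.76) and with values raised to log2 5 (-1.03). The IRS1 difference was lost without any 1 of the 4 Notch1 arrays (-0.82 to -0.95), and with values raised to log2 5 (-0.89). The LRP1 difference was lost without PC3 Notch1 replicate 1 (0.74), LNCaP GFP replicate 2 (0.70) or LNCaP Notch1 replicate 2 (0.81), and with values raised to log2 5 (0.85). No gene or probe set in these sentences was tested for why its change differed.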

How the results depend on the processing

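All 4 IGFBP calls in PC3 and all 6 in LNCaP were kept under every alternative that gave them a value (60 and 88 values). Of the 8 calls on the difference between lines, 3 were kept throughout, as were 7 of the 10 between GFP groups. The count of 8 became 5 with the filter at the 25th percentile, which left 9 of the 15 probe sets (18.3% of all probe sets left were called), and 4 with values raised to log2 5 (8.46% of all, against 14.2%). The filter took out the called IGFBP5 probe sets 1396_at, 1678_g_at and 38650_at, and it ended no call among those that stayed. The IGF axis genes called in PC3, 10 in all, numbered 6 after quantile normalization, 5 with values raised to log2 5 and 6 with the 4 PC3 arrays alone. Of all probe sets, 4.87% were called in PC3 after quantile normalization, against 6.20%. Leaving out 1 array, which left 1 in its group, kept every IGFBP call with Notch1 in PC3 and in LNCaP. It added or ended other IGFBP calls, as given with each probe set above. For the IGF axis it gave 5 to 11 in PC3 (6 without PC3 GFP replicate 1, PC3 Notch1 replicate 1, LNCaP Notch1 replicate 1 or LNCaP Notch1 replicate 2, and 5 without PC3 Notch1 replicate 2) and 9 to 14 in LNCaP, where 11 were called. No called change reversed. Among the alternative values of results that were not called, 35 of 457 for IGFBP probe sets and 21 of 468 for the other named genes changed sign. Across the whole array, the 779 calls in PC3 became 347 with values raised to log2 5, 470 with the PC3 arrays alone, and 251 to 1694 when 1 array was left out. The 2176 in LNCaP became 1415 with values raised to log2 5 and 1329 to 2546 when 1 array was left out. The causes were not tested.

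With the replicate number as a block, 5 IGFBP probe sets were called in PC3, 6 in LNCaP, 9 for the difference and 12 between GFP groups, and the IGF axis counts were 12 in PC3 and 16 in LNCaP. Over all probe sets the block gave 1507 calls in PC3, 2871 in LNCaP (22.9%), 2879 for the difference (22.9%), where 1778 were called without it, and 8043 between GFP groups (64.0%). IGFBP calls gained were 1677_at in PC3 (-0.55, limma, adjusted p = 0.0271), 1741_s_at for the difference (-0.60, adjusted p = 0.0300), and 1677_at (0.48) and 41420_at (0.30) between GFP groups. It ended no IGFBP call, and among the other named genes it added the differences of INSR (-0.56) and CAV1 (-0.64).

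Low signal limits IGFBP1, IGFBP7 and part of IGFBP5, and also IGFBP2 in PC3 and IGFBP4 and IGFBP6 in LNCaP. A change there may not be detectable. Only 2 of the 15 probe sets, both of IGFBP3, stood at or above log2 5 on all 8 arrays.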

Other observations

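In the order of coding genes in RefSeq, IGFBP1 stands beside IGFBP3 on chromosome 7, IGFBP2 beside IGFBP5 on chromosome 2, and IGFBP4 between TOP2A and TNS4 on chromosome 17. No comparison of neighbours with other gene pairs was made.

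A probe set of IGF1R other than the brightest, 34718_at, read 2.88 and 2.81 in PC3 GFP and 3.52 and 3.68 in PC3 Notch1, a called change of 0.76 (limma, adjusted p = 0.0325), with all 8 arrays under log2 5. Another IGF1R probe set, 31335_at, changed by 0.06 there (adjusted p = 0.762). Both were named after their values were seen.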
